A study of Saccharomyces cerevisiae with 18 samples.

Results

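The strain of budding yeast lacking both DOT4 and UBP8 was set against the sum of the changes in the 2 strains lacking one gene each. For every ORF the interaction was the log2 ratio of null over wild type in the double null, minus that ratio in the dot4 null, minus that ratio in the ubp8 null. An interaction of 0 means that the ratios of the single nulls multiply to the ratio of the double null, a positive value that the double null lay above that product, and a negative value that it lay below. All 18 arrays of the series entered, 6 for each genotype, and gave 9 set means, 3 for each genotype. The double null was labelled dot4ubp8 null (strain UCC6393), the single nulls dot4 null (UCC6390) and ubp8 null (UCC6392), and the wild type UCC6389. All strains were grown in YEPD, a rich glucose medium, and the wild type RNA filled the other channel of every array. On 1 double null array, of set 3, the label gave the genotype dot4ubp8 null with the strain number of the ubp8 null. The labels give neither the marker alleles of the strains nor whether a set was a culture of its own, and the p-values therefore describe how far these arrays spread, perhaps only technically.

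DOT4, listed under its standard name UBP10, and UBP8 encode proteases that remove ubiquitin from histone H2B. Ubp8 acts as a module of SAGA, a coactivator complex at gene promoters, and Ubp10 is known for its part in silencing near telomeres. H2B is ubiquitinated by Rad6 and Bre1, the mark promotes methylation of histone H3, and both its addition and its removal are linked to transcription. Whether the enzymes can replace each other at a gene is the question that a double deletion asks: a transcript that moves in the double null alone, or by more than the single changes together, is called redundant or synergistic, and one that moves less is called suppressed.

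The deposited ratios were read as channel 2 over channel 1, because only then are UBP10 and UBP8 low in the strains lacking them; their levels therefore set the direction of all values below and do not check it. UBP10 had set means of -4.60, -4.90 and -4.58 in double null cells, -5.21, -5.20 and -4.75 in dot4 null cells, and -0.19, -0.14 and -0.16 in ubp8 null cells, as log2 ratios to wild type. UBP8 had -2.64, -2.92 and -3.26 in double null cells, -0.08, -0.07 and -0.06 in dot4 null cells, and -2.93, -2.78 and -3.10 in ubp8 null cells. The interaction was 0.53 ± 0.14 for UBP10 (SE, limma, adjusted p = 0.0278) and 0.07 ± 0.16 for UBP8 (limma, adjusted p = 0.796), so a gene absent from the double and the dot4 null passed the test on its residual signal. The UBP10 interaction was -0.36 with the null RNA in channel 2 alone (limma, adjusted p = 0.357). That of UBP8 passed with arrays scaled to a common spread (0.98), after quantile normalization (2.16) and, below the sum, in channel 2 alone (-0.81), with limma adjusted p = 0.00775, 5.2e-07 and 0.0168 in that order. Arrays of the same genotype correlated over all ORFs at 0.538 to 0.951 where the null RNA was in the same channel, and at 0.236 to 0.807 where it was in opposite channels. The median absolute deviation of an array averaged 0.274 in double null cells, 0.245 in dot4 null cells and 0.202 in ubp8 null cells, and the median SD between set means was 0.0635, 0.0408 and 0.0523 in the same order.

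Of 6205 ORFs, 1261 (20.3%) differed from the sum of the single nulls at an adjusted p under 0.05 in limma. The double null was above the sum for 739 of them (11.9%) and below it for 522 (8.41%). The split depended on the scaling: 58.6% of the calls were above the sum, against 46.3% without centring the arrays (105 above and 122 below) and 44.0% after quantile normalization (673 above and 855 below). At least 1.5-fold from the sum were 81 ORFs (1.31%), 63 above it (1.02%) and 18 below it (0.29%). In 80 of these 81 the 3 double null set means lay outside all 9 sums of a dot4 null and a ubp8 null set mean, and the remaining ORF was URA3, which lacked 1 set mean. The 81 were chosen from these same set means, so this separation largely follows from the choice and adds no support. Over all ORFs 15.8% had the double null set means above all 9 sums and 14.6% below them. Of the 472 ORFs that changed at least 1.5-fold in the double null itself (7.61%), 224 (47.5%) differed from the sum, 44 of them by 1.5-fold, and the other 248 did not pass. Changes of at least 1.5-fold against wild type were fewer in the single nulls, 173 (2.79%) in the dot4 null and 47 (0.757%) in the ubp8 null. The smallest called interaction was 0.126, and the median standard error was 0.0594, so smaller departures from the sum were not detectable here.

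**Figure D1:**
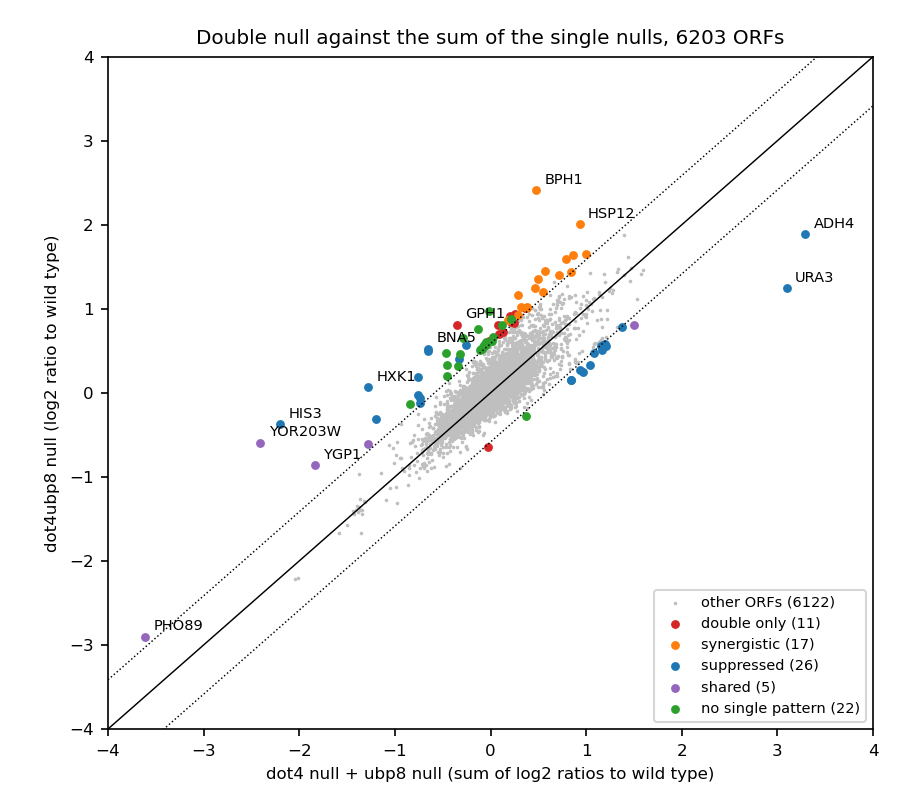
Mean log2 ratio to wild type in the double null (vertical axis) against the sum of the mean log2 ratios of the dot4 and ubp8 nulls (horizontal axis), one point per ORF, without UBP10 and UBP8. The solid line marks equality and the dotted lines 1.5-fold from it, and colours mark the 81 ORFs that passed the test beyond 1.5-fold, with BPH1 and HIS3 above the line and URA3 and ADH4 below it.

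The 81 ORFs were sorted by the size of the 3 genotype means. In 11 both single nulls changed less than 1.2-fold and the double null at least 1.5-fold, the redundant pattern, with 10 above the sum and 1 below. In 17 the double null exceeded the sum in the direction in which at least 1 single null had already moved 1.2-fold, the synergistic pattern, and all 17 were above. In 5 both single nulls changed at least 1.2-fold and the double null at least 1.5-fold, all the same way, and the double null by less than the sum, the shared pattern, with 4 above the sum and 1 below. In 26 that were not shared a change of at least 1.5-fold in a single null was smaller in the double null, the suppressed pattern, with 11 above and 15 below. In none did the double null move 1.5-fold against a single null that had itself moved 1.5-fold. The remaining 22, with 21 above and 1 below, met none of these definitions. The patterns differed in how far they depended on the scaling: after quantile normalization 1 of the 17 synergistic ORFs, 7 of the 11 redundant, 25 of the 26 suppressed, 5 of the 5 shared and 17 of the other 22 kept call and direction. Nearest to the size threshold, PEX9 (0.585), YGR051C (0.597) and SER3 (-0.592) lay just inside it, and IME1 (0.579), YML133C (-0.580) and YEL077C (-0.583) just outside.

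**Figure D2:**
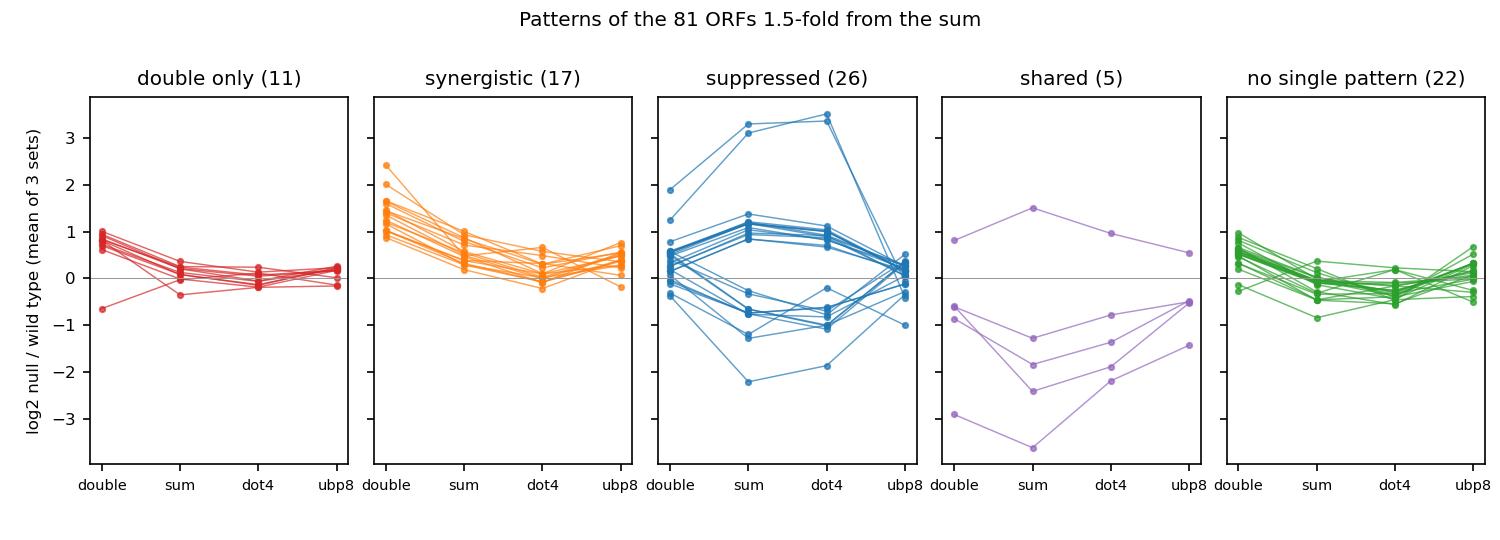
Mean log2 ratio to wild type in the double null, the sum of the single nulls, the dot4 null and the ubp8 null for the 81 ORFs, one line per ORF, in 5 panels by pattern. In the suppressed panel the lines run farthest from 0 at the sum and the dot4 null, and in the synergistic panel at the double null.

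BPH1, which encodes a large protein of the BEACH family, had the largest synergistic rise. Its set means were 2.39, 2.17 and 2.68 in double null cells, 0.72, 0.69 and 0.57 in dot4 null cells, and -0.02, -0.28 and -0.24 in ubp8 null cells. The double null lay 3.82-fold above the sum (1.93 ± 0.14, limma, adjusted p = 3.96e-05), although the ubp8 null alone was below 0 in every set. BPH1 was the 1 synergistic ORF that kept its call after quantile normalization. HSP12, a small membrane-associated stress protein and next by size, had 1.91, 1.91 and 2.19 in double null cells, 0.59, 0.58 and 0.56 in dot4 null cells, and 0.39, 0.33 and 0.35 in ubp8 null cells. All double null values lay far above every single null value, and the interaction was 1.07 ± 0.08 (limma, adjusted p = 4.94e-05). HSP26, a small heat shock chaperone, had 1.65, 1.44 and 1.70 in double null cells, 0.34, 0.19 and 0.14 in dot4 null cells, and 0.74, 0.42 and 0.52 in ubp8 null cells, with an interaction of 0.81 ± 0.11 (limma, adjusted p = 0.00104). BPH1, HSP12 and HSP26 each passed with the null RNA in channel 1 alone and with it in channel 2 alone. After quantile normalization HSP12 gave 0.47 (limma, adjusted p = 0.121) and HSP26 0.06 (limma, adjusted p = 0.732), neither past the threshold.

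Most of the other synergistic ORFs had their larger single change in the ubp8 null. The ubp8 mean was above the dot4 mean in 13 of the 17, and the dot4 null changed less than 1.2-fold in 11. RNR3, the damage-inducible large subunit of ribonucleotide reductase, had 1.01, 1.03 and 1.03 in double null cells, -0.02, -0.14 and -0.05 in dot4 null cells, and 0.37, 0.37 and 0.44 in ubp8 null cells, and lay 1.63-fold above the sum (0.70 ± 0.05, limma, adjusted p = 4.35e-05). The set means of the 3 genotypes did not overlap, but single arrays of the dot4 and ubp8 nulls did. RNR3 missed the threshold with the null RNA in channel 1 alone (0.23, limma, adjusted p = 0.122) and after quantile normalization (0.24, limma, adjusted p = 0.0733). SOL4, a 6-phosphogluconolactonase, averaged 1.24 in double null cells, -0.09 in dot4 null cells and 0.55 in ubp8 null cells, and YAT1, a carnitine acetyltransferase, averaged 1.64, 0.10 and 0.76 in the same order. DAL1, the allantoinase of nitrogen catabolism, averaged 1.17 in double null cells, -0.08 in dot4 null cells and 0.37 in ubp8 null cells (interaction 0.88 ± 0.14). ECM13 (interaction 0.69), IRC18 (0.88), WSC4 of a family of cell wall stress sensors (0.65) and YFL015C, which is numbered next to HSP12 (0.64), were also synergistic. With the null RNA in channel 1 alone DAL1 (0.35), IRC18 (0.27), WSC4 (0.14) and YFL015C (0.16) did not pass, and after quantile normalization neither did SOL4 (0.18), DAL1 (0.40), ECM13 (0.19), IRC18 (0.24), WSC4 (0.11) and YFL015C (0.27). FMP48 (0.65 ± 0.18, limma, adjusted p = 0.0269) and YGR051C, its neighbour by number, lost the call when single sets were left out, at 0.49 to 0.67 for FMP48 and 0.52 for YGR051C.

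Among the redundant ORFs, GPH1 had the largest interaction. It encodes glycogen phosphorylase, which releases glucose from glycogen, and had set means of 0.94, 0.69 and 0.80 in double null cells, -0.05, -0.20 and -0.32 in dot4 null cells, and -0.03, -0.35 and -0.10 in ubp8 null cells. Both single nulls were slightly below wild type and the double null clearly above, 2.24-fold over the sum (1.16 ± 0.12, limma, adjusted p = 0.00022). The other 9 that rose included SPS1, a sporulation protein kinase (0.94 in double null cells, 0.24 in dot4 null cells and 0.01 in ubp8 null cells). Also among them were SSP1 and PFS1 of prospore membrane formation (0.62 and 0.73 in the double null), and PES4, an RNA-binding protein of sporulation (0.81). The share of spore formation genes over all ORFs was not taken. RCK1, a protein kinase gene, PEX9, an import receptor of peroxisomes, and YFL012W, YJR157W and YOL053C-A, listed here under systematic names, completed the rises. The call of YOL053C-A (0.61 ± 0.15, limma, adjusted p = 0.0198) was lost without set 2 of the ubp8 null. After quantile normalization PES4 (0.44), RCK1 (0.26), PEX9 (0.29) and YOL053C-A (0.36) did not pass. The single redundant decrease was YGL039W, a carbonyl reductase gene, with -0.67, -0.70 and -0.56 in double null cells, 0.13, 0.07 and 0.15 in dot4 null cells, and -0.14, -0.04 and -0.25 in ubp8 null cells (-0.62 ± 0.07, limma, adjusted p = 0.000437).

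Array orientation moved with these 2 patterns. A dye effect of an ORF that is equal on all arrays cancels in a set mean but enters the interaction once when only one orientation is used, because the weights of the contrast sum to -1. Of the 81 ORFs, 73 had the same sign in both orientations, 58 passed with the null RNA in channel 1 alone, 73 with it in channel 2 alone, and 51 in both. Of the 17 synergistic ORFs 6 passed in channel 1 and 17 in channel 2, and of the 11 redundant ORFs 4 and 10, whereas of the 26 suppressed ORFs 25 and 24 passed. The 8 ORFs whose sign turned were CDA1, a chitin deacetylase of the spore wall, ATG39, a receptor for autophagy of the nucleus, FIG1, a mating gene that also lost its call in 4 of the fits leaving out a set (0.50 to 0.57), RCK1, PES4, PEX9, YFL012W and YGR226C. CDA1, for example, was -0.33 with the null RNA in channel 1 and 2.05 with it in channel 2. SPS1 was 0.13 and 1.25 in the same order, SSP1 0.32 and 0.94, and PFS1 0.06 and 1.14, each below the threshold in channel 1, and GPH1 0.95 and 1.37, both values of GPH1 past the threshold. The double null arrays of CDA1 gave 0.45, 0.89 and 1.56 in channel 1 and 2.22, 1.92 and 1.06 in channel 2. Its dot4 null arrays gave 0.37, 0.55 and 0.35, and -0.405, -0.39 and -0.50. Its ubp8 null arrays gave 1.03, 0.85 and 0.74, and 0.12, -0.06 and 0.30. Channel 1 gave the higher value in every set of both single nulls, but in the double null only in set 3. In the 18-array fit with a dye term CDA1 gave 0.86 and missed the threshold (limma, adjusted p = 0.0536). The part of a dye effect in these results was not tested.

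**Figure D3:**
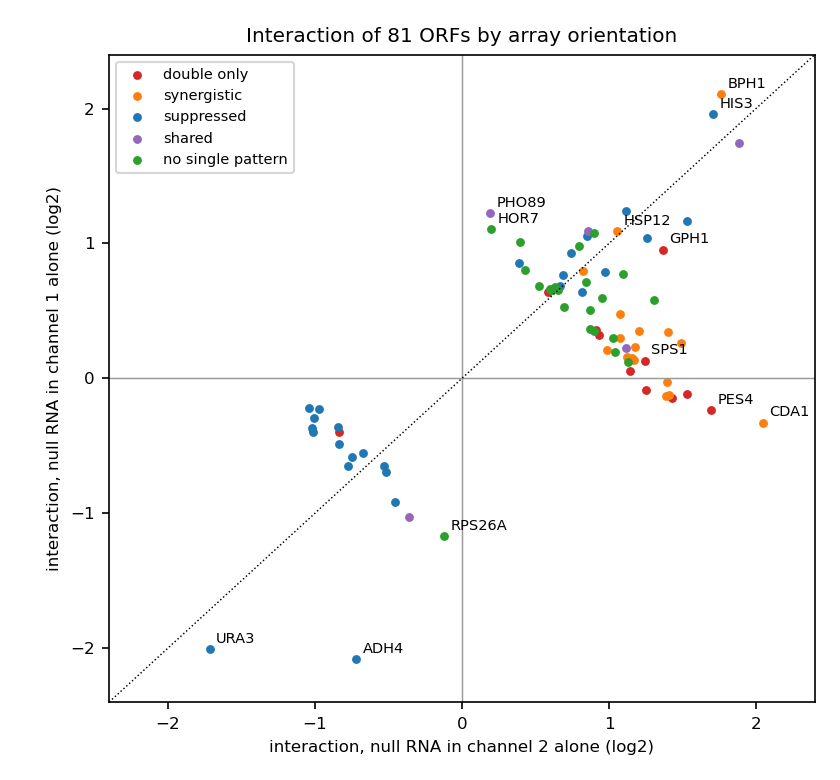
Interaction of the 81 ORFs from the 9 arrays with the null RNA in channel 1 (vertical axis, log2) against the 9 arrays with it in channel 2 (horizontal axis, log2), coloured by pattern, with equality dotted. Suppressed ORFs lie in the upper right and lower left parts, while CDA1, PES4 and other synergistic or redundant ORFs lie at or below 0 on the vertical axis.

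Most suppressed ORFs had moved in the dot4 null, which also had more ORFs changed at least 1.5-fold, 173 against 47 in the ubp8 null. In 10 of the 11 suppressed ORFs above the sum, and in all 15 below it, the single null that had moved was the dot4 null. HIS3 of histidine synthesis stood at -0.20, -0.43 and -0.49 in double null cells, -1.90, -1.83 and -1.84 in dot4 null cells, and -0.34, -0.32 and -0.37 in ubp8 null cells. The double null overlapped the ubp8 null and lay far from the dot4 null, 3.56-fold above the sum (1.83 ± 0.08, limma, adjusted p = 1.36e-06). YOR203W, numbered next to HIS3, gave nearly the same values, with means of -0.59, -1.88 and -0.52 in the double, dot4 and ubp8 nulls, and fell under the shared pattern.

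The sugar kinase genes HXK1 and GLK1 showed the same return, and only these 2 of 21 listed glycolysis and fermentation genes lay 1.5-fold above the sum. HXK1, a hexokinase gene, had 0.10, 0.07 and 0.04 in double null cells, -0.99, -0.98 and -1.02 in dot4 null cells, and -0.21, -0.40 and -0.22 in ubp8 null cells, an interaction of 1.35 ± 0.06 (limma, adjusted p = 1.38e-06). The fall of the dot4 null was absent from the double null in every set. GLK1, the glucokinase gene, had 0.62, 0.53 and 0.57 in double null cells, -0.73, -0.71 and -0.89 in dot4 null cells, and 0.64, 0.60 and 0.31 in ubp8 null cells, so the double null lay within the range of the ubp8 null (interaction 0.84 ± 0.10, limma, adjusted p = 0.000527). BNA5, the kynureninase of NAD synthesis, had 0.65, 0.43 and 0.49 in double null cells, -0.94, -1.01 and -1.04 in dot4 null cells, and 0.31, 0.43 and 0.28 in ubp8 null cells (1.18 ± 0.08, limma, adjusted p = 1.98e-05). YLR232W, numbered next to BNA5, behaved alike (1.15). STF1, which stabilizes the inhibitor of the mitochondrial ATP synthase, averaged 0.40 in double null cells, -0.70 in dot4 null cells and 0.37 in ubp8 null cells. In BNA5, YLR232W, GLK1 and STF1 the double null was at least 1.2-fold above wild type while the dot4 null was below it.

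Further suppressed decreases were ARG1, the argininosuccinate synthetase (0.19 in double null cells, -0.82 in dot4 null cells and 0.06 in ubp8 null cells), GSY2, a glycogen synthase (-0.06, -0.63 and -0.11 in that order), SED1, a cell wall protein (-0.12, -0.61 and -0.12), and YMR173W-A (-0.03, -1.08 and 0.33). With the null RNA in channel 2 alone the interaction of SED1 was 0.39 and did not pass (limma, adjusted p = 0.0761). RDS1, a zinc cluster transcription factor gene, was the only one in which the ubp8 null had moved: it averaged -0.31 in double null cells, -0.20 in dot4 null cells and -0.996 in ubp8 null cells (0.88 ± 0.06, limma, adjusted p = 3.47e-05). ADH7, an alcohol dehydrogenase gene numbered next to RDS1, was likewise low in the ubp8 null alone (0.46, 0.19 and -0.50).

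Suppressed increases had 2 large cases. URA3 of uracil synthesis had 1.05, 1.25 and 1.43 in double null cells, 3.54, 3.67 and 3.31 in dot4 null cells, and -0.58 and -0.23 in the 2 ubp8 null sets with a value, and the double null lay 3.62-fold below the sum (-1.85 ± 0.16, limma, adjusted p = 0.000177). ADH4, an alcohol dehydrogenase gene, had 1.90, 1.94 and 1.84 in double null cells, 3.59, 3.36 and 3.12 in dot4 null cells, and 0.08, -0.07 and -0.21 in ubp8 null cells, 2.64-fold below the sum (-1.40 ± 0.13, limma, adjusted p = 0.000125). The double null kept a rise over wild type for both genes, smaller than in every dot4 null set. ADH4 missed the threshold with the null RNA in channel 2 alone (-0.72, limma, adjusted p = 0.0529) and after quantile normalization (-0.52, limma, adjusted p = 0.126).

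URA3, HIS3 and ADH4 were the members beyond 1.5-fold of a list of 11 genes. The list held genes used as markers in laboratory strains and, beside them, ADH4. Of that list 4 were above the sum, 3 below, and 4 did not pass, 63.6% called against 20.3% of all ORFs. ADE2 of purine synthesis moved oppositely in the single nulls, 0.17 in double null cells, 0.79 in dot4 null cells and -0.96 in ubp8 null cells (0.34 ± 0.08, limma, adjusted p = 0.0131), and its sign turned when additivity was taken on the linear scale (-0.14). LEU2 of leucine synthesis averaged -0.30 in double null cells, -0.73 in dot4 null cells and 0.11 in ubp8 null cells (0.32 ± 0.06, limma, adjusted p = 0.00415). Neither ADE2 (0.26) nor LEU2 (0.24) passed without centring, and LEU2 gave 0.15 with the null RNA in channel 2 alone and did not pass. No label gives the alleles of these loci in each strain, and their part in these values was not tested.

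**Figure D4:**
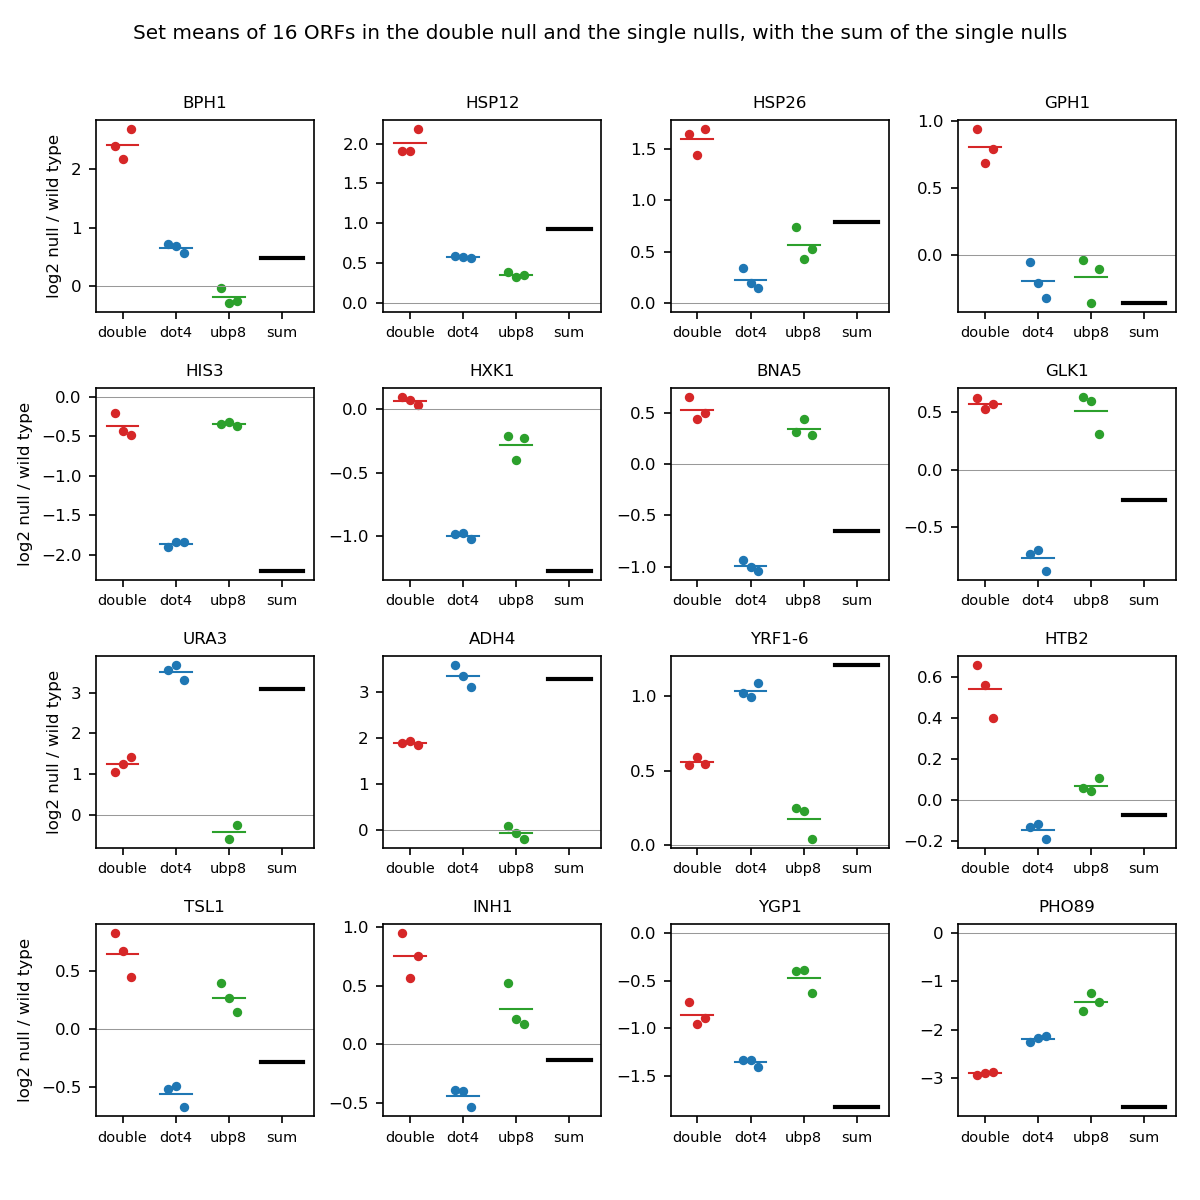
Set means (points) and genotype means (short lines) of log2 null over wild type for 16 ORFs in the double, dot4 and ubp8 nulls, with the sum of the single nulls as a black bar; each panel has its own vertical scale. The double null lies above the bar in BPH1, HSP12, GPH1 and HIS3 and below it in URA3, ADH4 and YRF1-6.

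The helicase genes of the Y' elements, repeats found at many yeast telomeres, rose in the dot4 null and less in the double null. All 7 listed were below the sum, 4 of them by 1.5-fold, with a list median of 0.57 in double null cells, 1.01 in dot4 null cells and 0.17 in ubp8 null cells. The median interaction was -0.60 ± 0.08 (SD, combined from the spread of the list's median between the set means of each genotype), against 0.01 for all ORFs, and it was -0.29 with the null RNA in channel 1 alone and -0.84 with it in channel 2 alone. YRF1-6 had 0.54, 0.59 and 0.54 in double null cells, 1.02, 0.995 and 1.09 in dot4 null cells, and 0.25, 0.23 and 0.04 in ubp8 null cells (-0.65 ± 0.07, limma, adjusted p = 0.000278). YRF1-7, YRF1-3 and YRF1-5 gave -0.63, -0.60 and -0.60, and YRF1-1, YRF1-2 and YRF1-4 -0.51, -0.54 and -0.54. These genes are near-identical copies, so the arrays may not tell them apart and they may count as 1 measurement.

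Some other outer ORFs of chromosome arms also lay below the sum. Of the 18 ORFs at least 1.5-fold below the sum 9 were among the 5 highest-numbered ORFs of an arm, a group of 162 in all, and of the 63 above it 5 were. The 9 include the 4 helicase genes beyond 1.5-fold described above, and 5 were left without the listed helicase and seripauperin genes. Of these, YNL338W is numbered next to YRF1-6, so the 9 may not be separate measurements. This grouping was chosen after values were seen. YFL065C averaged 0.25 in double null cells, 0.92 in dot4 null cells and 0.05 in ubp8 null cells (-0.71 ± 0.06, limma, adjusted p = 0.000117), and YHL049C, YNL338W and YBL109W gave -0.66, -0.66 and -0.61. YIR042C, in the shared pattern, was at 0.81, 0.96 and 0.55. Of the 162, 43 were below the sum and 25 above, 42% called against 20.3% of all ORFs. The median interaction of the 162 was 0.02, and it was -0.13 with the null RNA in channel 1 alone and 0.03 with it in channel 2 alone. Leaving out set 2 of the ubp8 null left 16 above. Without the listed helicase and seripauperin genes 35 of 139 were below and 24 above. Only listed names were removed, so YFL065C and YHL049C stayed, and ORFs of the Y' repeats under systematic names may remain. Distance from a telomere was not used, because the table names no genome build. Elsewhere HPF1, a cell wall mannoprotein (-0.71), SER3 of serine synthesis (0.78 in double null cells, 1.12 in dot4 null cells and 0.26 in ubp8 null cells), and BSC1 with YDL038C, numbered next to each other (-0.69 and -0.61), were suppressed increases. YCL041C (-0.69 ± 0.16, limma, adjusted p = 0.0153) lies next to GLK1 by number and moved oppositely to it, and it gave -0.37 with the null RNA in channel 1 alone and did not pass. Of the 81 ORFs 18 formed 9 pairs with consecutive numbers, and in 8 pairs both moved the same way, among them SSP1 with PFS1. Most of the 81 lay above the sum, 63 of them, and the share of such pairs over all ORFs was not taken. No label names the strand that the probes read, so overlapping neighbours cannot be told apart.

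In the shared pattern, PHO89, the sodium-phosphate cotransporter gene, was at -2.94, -2.89 and -2.87 in double null cells, -2.25, -2.17 and -2.13 in dot4 null cells, and -1.61, -1.23 and -1.43 in ubp8 null cells. The double null was lower than both, yet 1.63-fold above the sum (0.71 ± 0.10, limma, adjusted p = 0.00104). With the null RNA in channel 2 alone the interaction was 0.19 and missed the threshold (limma, adjusted p = 0.49). YGP1, a secreted glycoprotein of nutrient limitation, had -0.72, -0.96 and -0.89 in double null cells, -1.33, -1.34 and -1.41 in dot4 null cells, and -0.40, -0.39 and -0.63 in ubp8 null cells (0.98 ± 0.09, limma, adjusted p = 0.000135), so the double null lay between the single nulls. YLR162W (0.67 ± 0.21, limma, adjusted p = 0.0437) lost its call in 8 of the 9 fits that left out a set, at 0.49 to 0.73.

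Intermediate cases made up much of the remaining 22 ORFs. In 11 of them the dot4 null was at least 1.2-fold below wild type and the double null above it, and in 8 of these 11 the ubp8 null was at least 1.2-fold above it. TSL1, a subunit of trehalose synthase, had 0.83, 0.67 and 0.45 in double null cells, -0.51, -0.49 and -0.67 in dot4 null cells, and 0.40, 0.27 and 0.15 in ubp8 null cells (0.94 ± 0.11, limma, adjusted p = 0.000644). INH1, the inhibitor of the mitochondrial ATP synthase, had 0.95, 0.57 and 0.75 in double null cells, -0.39, -0.39 and -0.54 in dot4 null cells, and 0.53, 0.22 and 0.17 in ubp8 null cells (0.89 ± 0.13, limma, adjusted p = 0.00151). In both genes the double null set means were above those of the ubp8 null, by a small margin at the edges. PRY1, a secreted sterol-binding protein (0.99), ADR1, an activator of glucose-repressed genes (0.94), PDS5 of cohesin maintenance (0.78), IGD1, an inhibitor of glycogen debranching (0.69), ALD6, an aldehyde dehydrogenase (0.66), ATG34, an autophagy receptor (0.66), HOR7 (0.65), PNC1, the nicotinamidase (0.63), and COX5B of cytochrome c oxidase (0.60) gave these interactions, each with its lowest mean in the dot4 null and its highest in the double null. RPS26A, a protein of the small ribosomal subunit, was the one decrease, at -0.28 in double null cells, 0.23 in dot4 null cells and 0.14 in ubp8 null cells (-0.64 ± 0.08, limma, adjusted p = 0.000532), and it gave -0.12 with the null RNA in channel 2 alone. It has a close copy, RPS26B. After quantile normalization IGD1 (0.21), ATG34 (0.06), HOR7 (0.35) and COX5B (0.32) did not pass, nor did HOR7 with the null RNA in channel 2 alone (0.20) or ATG34 with it in channel 1 alone (0.30). The enolase-related genes ERR2 and ERR3, which are near-identical (0.62 and 0.63), STR3, a cystathionine lyase (0.62), AQR1, a multidrug transporter (0.63), the transcription factor gene GSM1 (0.62) and YGL088W (0.70 ± 0.18, limma, adjusted p = 0.0232) were higher in the double null than in the mean of either single null. YGL088W lost its call without set 1 or 2 of the double null or set 2 or 3 of the dot4 null, at 0.62 to 0.69, and with the null RNA in channel 2 alone (0.40). With it in channel 1 alone ERR3 (0.12) and GSM1 (0.19) did not pass, and after quantile normalization STR3 (0.41) did not.

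The H2B genes themselves, which encode the substrate of both proteases, were above the sum. HTB2 had 0.66, 0.56 and 0.40 in double null cells, -0.13, -0.12 and -0.19 in dot4 null cells, and 0.06, 0.05 and 0.11 in ubp8 null cells (0.62 ± 0.07, limma, adjusted p = 0.000509). HTB1 had 0.64, 0.51 and 0.41 in double null cells, -0.09, -0.04 and -0.21 in dot4 null cells, and 0.11, 0.04 and 0.06 in ubp8 null cells (0.56 ± 0.07, limma, adjusted p = 0.000946). In neither gene did the double null set means overlap a single null, and the pair are close copies. HTB1 gave 1.02 with the null RNA in channel 1 alone and 0.10 with it in channel 2 alone, which did not pass (limma, adjusted p = 0.335). HTA1 of histone H2A averaged 0.40 in double null cells, -0.02 in dot4 null cells and 0.16 in ubp8 null cells (0.26 ± 0.09, limma, adjusted p = 0.0602), and HTA2 0.40, 0.08 and 0.19 (0.13 ± 0.08, limma, adjusted p = 0.243). HHT1, HHT2, HHF1 and HHF2 had interactions of -0.05, -0.12, -0.13 and -0.06, none past the threshold. These depended on the processing: the 4 genes passed below the sum with arrays scaled to a common spread (-0.19 to -0.32) and after quantile normalization (-0.35 to -0.57). With the null RNA in channel 2 alone HHT1 (-0.24), HHT2 (-0.57) and HHF1 (-0.29) passed below the sum. With it in channel 1 alone HHT2 turned to 0.33, and HTA1 (0.66) and HTA2 (0.48) passed above the sum. HTA1 also passed above the sum in the fit with a dye term (limma, adjusted p = 0.0253). Of 11 histone genes, 2 were above the sum and 9 did not pass, 18.2% called against 20.3% of all ORFs. The list median was 0.33 in channel 1 alone and -0.13 in channel 2 alone.

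Gene lists were read against 11.9% of all ORFs called above the sum and 8.41% below. The trehalose and glycogen list had 13 of 22 above and none below, with medians of 0.27 in double null cells, -0.19 in dot4 null cells and 0.15 in ubp8 null cells, and a median interaction of 0.26 ± 0.07. Its largest were GPH1, TSL1, GSY2 and PGM2, phosphoglucomutase (0.61). The respiratory chain and ATP synthase list had 24 of 38 above and none below, with medians of 0.17, -0.18 and 0.03 and an interaction of 0.27 ± 0.12, led by INH1, STF1 and COX5B, of which the first 2 restrain the ATP synthase rather than form it. Without set 3 of the dot4 null it had 15 above. General stress genes had 23 of 47 above and 1 below, with medians of 0.61, -0.01 and 0.28 and an interaction of 0.27 ± 0.09. In the double null 26 of the 47 were at least 1.5-fold higher than in wild type, against 351 of all 6205 ORFs. Quantile normalization turned the median of the general stress list to -0.05, with 7 above and 9 below, while the trehalose and respiratory medians stayed above 0 in every scaling. Without centring 5 trehalose and glycogen, 4 respiratory and 10 general stress genes were above the sum and none below.

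Other carbon and nitrogen lists leaned the same way with smaller medians. Hexose transporters had 9 of 18 above and 1 below, with HXT4 at 0.65 and HXT6 at 0.55, and the list median was 0.02 with the null RNA in channel 1 alone and 0.32 with it in channel 2 alone. The tricarboxylic acid cycle list had 8 of 17 above and 1 below, with IDH2 and ACO1, isocitrate dehydrogenase and aconitase, both at 0.51, and medians of 0.30 and 0.02 by orientation in the same order. Without centring 3 hexose transporter and 2 tricarboxylic acid cycle genes were above the sum. Nitrogen catabolite genes had 13 of 28 above and none below, and 8 without set 3 of the dot4 null. Heat shock chaperones had 12 of 34 above and 2 below, with a median of 0.13 that turned to -0.04 after quantile normalization. Glycolysis and fermentation genes had 7 of 21 above. Leaving out set 1 of the double null or any set of the dot4 null left 4 above, and leaving out set 3 of the double null gave 12. Their median was 0.47 with the null RNA in channel 1 alone and -0.04 with it in channel 2 alone.

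Genes of meiosis and spore formation were above the sum in counts that depended on orientation. The middle and late sporulation list had 16 of 43 above and 1 below, with medians of 0.42 in double null cells, 0.08 in dot4 null cells and 0.18 in ubp8 null cells and an interaction of 0.19 ± 0.07. With the null RNA in channel 1 alone its median was -0.19, with 2 above and 10 below, and with it in channel 2 alone 0.64, with 27 above and 2 below. The early meiosis list had 10 of 30 above and 1 below, with 5 above without set 2 of the dot4 null, and its medians by orientation were -0.19 and 0.47. IME1, the master regulator of meiosis, averaged 0.50 in double null cells, -0.20 in dot4 null cells and 0.12 in ubp8 null cells (0.58 ± 0.05, limma, adjusted p = 0.000122). In bulk RNA a higher level in each cell and a larger share of cells in a state cannot be told apart.

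Ribosome assembly genes had medians of opposite sign in the single nulls. The small subunit processome list had medians of 0.00 in double null cells, 0.29 in dot4 null cells and -0.23 in ubp8 null cells, with 11 of 54 below the sum and 2 above. The large subunit assembly list had medians of 0.01, 0.31 and -0.21, with 14 of 73 below and none above. FAL1, a helicase of the processome, averaged 0.42 in double null cells, 0.75 in dot4 null cells and 0.00 in ubp8 null cells, and DBP3 and NOP12 of the large subunit had interactions of -0.31 and -0.30. None of the 3 passed without centring, FAL1 gave -0.23 in channel 2 alone and NOP12 -0.11 in channel 1 alone, neither past the threshold, and the median of the large subunit list turned from -0.18 in channel 2 alone to 0.03 in channel 1 alone. Leaving out 1 set left 4 to 17 processome and 2 to 17 large subunit genes below, fewest without set 3 of the dot4 null and equally few without set 2 of the ubp8 null, and without centring 1 and 0 were below. Ribosomal protein genes were lower in the double and dot4 nulls, with medians of -0.39 and -0.31 for the small subunit list. They departed from the sum in 3 of 56 small (5.36%) and 4 of 81 large subunit genes (4.94%), against 20.3% of all ORFs. The median interaction had opposite signs by orientation, 0.33 in channel 1 alone and -0.29 in channel 2 alone for the small subunit list. For the large subunit list it was 0.30 and -0.23 in the same order. Without set 3 of the double null 10 genes of each list were above the sum, against 1 of each with all sets.

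The phosphatase and seripauperin lists had the largest median changes of the 57 lists in the double null, with 18.2% and 13.3% of their genes called against the sum and 20.3% of all ORFs. Phosphatase and phosphate transport genes had medians of -1.29 in double null cells, -0.59 in dot4 null cells and -0.41 in ubp8 null cells. In the double null 7 of 11 were at least 1.5-fold lower, against 121 of all 6205 ORFs, and 2 differed from the sum. The median interaction of -0.02 ± 0.12 became 0.52 when the linear changes were added in place of the log2 ratios, with 6 of 11 called above, and 0.53 after quantile normalization, with 7 above. Seripauperin and TIR/DAN cell wall genes had medians of 1.08, 0.81 and 0.23. In the double null 22 of 30 were 1.5-fold higher, against 351 of all 6205 ORFs, and 2 were above the sum and 2 below it. Quantile normalization put 20 of these 30 below the sum, and leaving out 1 set gave 0 to 2 above and 0 to 4 below. Of 18 SAGA subunits other than UBP8, 4 were below the sum and none above, with TAF10 at -0.34, and of 18 genes of H2B ubiquitination and the linked methylation 3 were below, with SWD3 of the H3 methylase complex at -0.22. Neither TAF10 nor SWD3 passed without centring. Leaving out 1 set gave 1 to 3 below in both lists. A-cell and alpha-cell specific genes had 1 of 8 and 2 of 8 called.

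**Figure D5:**
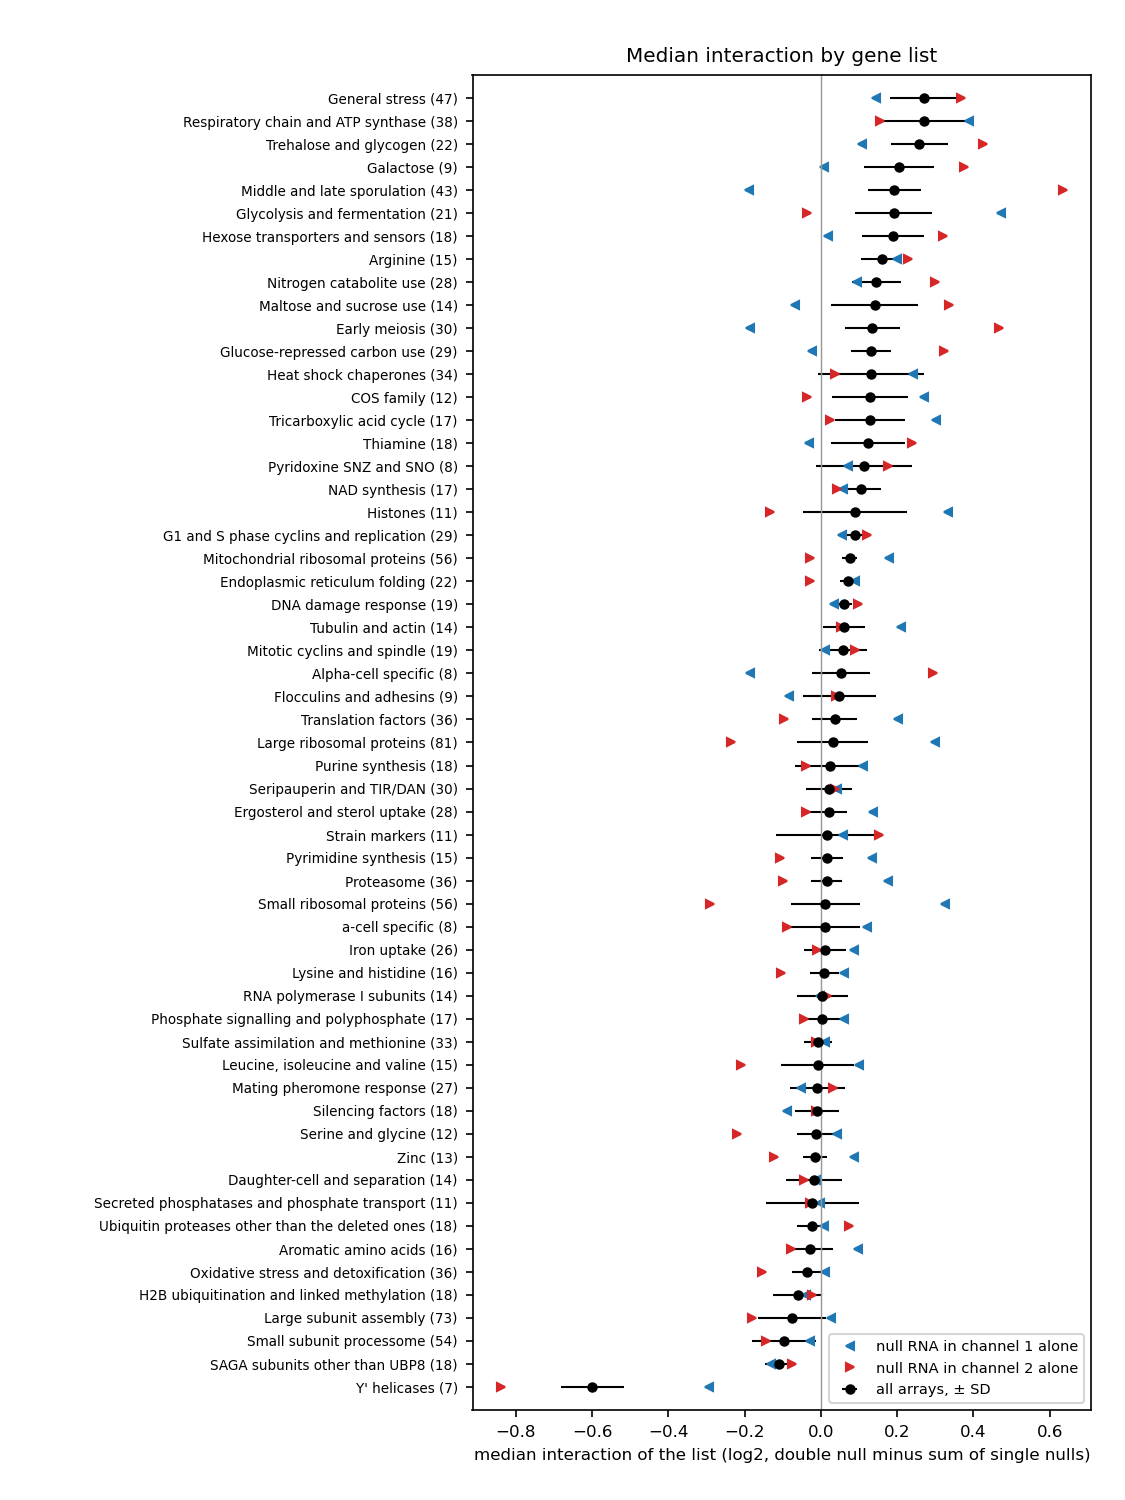
Median interaction of each functional gene list on the log2 scale, all arrays (black points, ± SD combined from the set means), the null RNA in channel 1 alone (blue) and in channel 2 alone (red), with the number of ORFs in brackets. General stress, respiratory and trehalose lists lie above 0 in both orientations, Y' helicases below 0 in both, and the sporulation and ribosomal protein lists on opposite sides.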

How the data were processed

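The table deposited by the authors lists 6205 ORFs on 18 arrays, each value a log2 ratio. Per the labels it is a ratio of 2 dyes, and background correction, normalization and the spots behind a value are not stated. The ratio runs as channel 2 over channel 1, a direction read from UBP10 and UBP8, which are low in their nulls only that way. No label fixes it, and the opposite reading would turn every sign. Missing were 9 empty values and 2 stand-in values, and a set mean lacking either array was left out. No channel intensity was used here, and no ORF was called above background.

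Each array was centred on its median and turned to null over wild type, and the pair of opposite orientation in a set was averaged. A mean per genotype was fitted to the 9 set means by lmFit and eBayes (limma 3.58.1, R 4.3.3), and the contrast double null minus dot4 null minus ubp8 null was tested two-sided with Benjamini-Hochberg adjustment over 6205 ORFs at 0.05. The wild type deviation enters this contrast once, and so does any offset left by centring. Sizes are described at 1.5-fold, and changes under 1.2-fold were called small. Errors of an ORF are standard errors of the fit, with n = 3 set means per genotype, and so few arrays bound the precision. The procedure was tested on simulated data. Symbols came by locus tag from a RefSeq table of the R64 assembly, which matched 5705 ORFs and left 500 under their systematic names.

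The contrast, the 57 gene lists and the rule for named ORFs were chosen with earlier results of these data known. The rule took the deleted genes, the 15 largest interactions in each direction, the 6 largest of each pattern, the leading called members of each list and the marker genes, and other ORFs are named as members of the 81 or of a list described. IME1, YML133C and YEL077C were named for their place at the threshold, and the other histone genes beside the H2B genes. Alternatives were 2 further scalings, no centring, each orientation alone, an 18-array fit with a dye term, the set number as a block, other variance models, additivity of linear changes, and leaving out each set.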

Additional observations from a re-analysis of the deposited data

Results flagged for a closer look

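On the ubp8 null arrays URA3 had 5 values, because 1 of its 6 was missing, and the lowest, -0.873, lay apart from the other four by a gap above Dixon's critical value for 5 samples. It is 1 of the 2 arrays behind the set 2 mean of the ubp8 null, which enters the interaction of URA3 of -1.85 ± 0.16 over the 8 set means available. The 15 ORFs with the largest interactions among those that passed the test were examined in this way in each genotype, 45 groups of arrays in all, and chance marks about 1 in 20 such groups.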

How the results depend on the processing

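The counts with all arrays centred and averaged were 739 above the sum and 522 below, 63 and 18 at 1.5-fold, and 11 double only (redundant), 17 synergistic, 5 shared, 26 suppressed and 22 other. Without centring, 105 and 122 passed, 37 and 45 at 1.5-fold, with 5 double only, 44 suppressed and 13 other, and all 81 ORFs kept their call. Arrays scaled to a common spread gave 38 and 41 at 1.5-fold, 3 double only, 6 synergistic, 51 suppressed and 12 other. Quantile normalization gave 855 below, 40 and 75 at 1.5-fold, 0 double only, 1 synergistic, 33 shared and 63 suppressed, and 55 of the 81 kept call and sign; YAT1 (-0.0579), FMP48 (-0.208) and YGR051C (-0.110) turned. Channel 1 alone gave 62 below at 1.5-fold, 2 double only, 7 synergistic, 1 reversed, 17 shared, 55 suppressed and 55 other, and turned CDA1 (-0.328), PES4 (-0.237), RCK1 (-0.147), FIG1 (-0.133), YGR226C (-0.123), YFL012W (-0.114), PEX9 (-0.0833), ATG39 (-0.0303) and HHT2 (0.333). Channel 2 alone gave 1032 below, 318 and 94 at 1.5-fold, 57 double only, 6 reversed, 13 shared, 75 suppressed and 238 other, and turned UBP10 (-0.361) and UBP8 (-0.812). Adding linear changes gave 10 below at 1.5-fold, 9 shared and 16 suppressed and turned ADE2 (-0.145); 3 ORFs had an expected ratio at or under 0. The causes were not tested. Whether set numbers pair the samples was not settled. Deviations from the genotype means correlated at -0.258 to 0.274 between same-numbered sets and at -0.331 to 0.298 between others. With the dot4 null as 1 side the ranges were 0.0477 to 0.274 and -0.331 to 0.166. With the set number as a replicate block 746 and 526 passed, 63 and 18 at 1.5-fold. The dye-term fit, trend and robust moderation and a spread per genotype left the counts at 1.5-fold within 1 ORF.

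Leaving out 1 set gave 455 to 954 above and 275 to 642 below, lowest without dot4 null set 3 and highest without double null set 3, which holds the array with the ubp8 strain number. At 1.5-fold 48 to 76 were above and 15 to 26 below, with 5 to 24 double only, 14 to 22 synergistic, 0 to 1 reversed, 4 to 5 shared, 23 to 31 suppressed and 17 to 32 other. Of 106 named ORFs 52 held call and direction in every alternative.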
